A study of Mus musculus with 4 samples.

Results

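The oligoadenylate synthetase (OAS) family was analyzed in T8 leukemia cells, in which transduction with a retrovirus coding for IRF4 was compared with an empty vector. The 8 members were taken by name: *Oas1a*, *Oas1b*, *Oas1c*, *Oas1g*, *Oas2*, *Oas3*, *Oasl1* and *Oasl2*, out of 55359 gene identifiers counted. All 8 passed the filter on low counts. T8 is a B-cell precursor leukemia (pB-ALL) line grown out of 1 tumor of an *Irf4*-/- mouse on the C57Bl/6 background, so that every library carries the *Irf4* deletion and comes from 1 leukemia. T8 is also among the leukemias in which the study found *Jak3* mutations. The control group (EV-RV) received a retrovirus coding for GFP alone, the other group (IRF4-RV) the same vector coding for GFP plus IRF4, and total RNA of the cells still viable 24 h later was sequenced, with 2 libraries per group. The age of the mouse is not given in the labels, and the protocol text there names T11 cells while titles and tissue name T8. Nothing in the labels says that the 2 libraries of a group came from separate cultures, so p-values measure the spread between these libraries only, which may be technical.

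OAS enzymes bind double-stranded RNA (dsRNA), a sign of viral replication, and then join ATP into short 2′-5′ linked oligoadenylates (2-5A). 2-5A sets off the cleavage of cellular and viral RNA and can end in cell death. Genes of the family are textbook interferon-stimulated genes: type I interferon activates the kinases JAK1 and TYK2, and these lead to assembly of ISGF3, a complex that includes STAT2 and IRF9 and binds the interferon-stimulated response element (ISRE). Mice carry several copies of *Oas1*, 1 *Oas2*, 1 *Oas3* and a pair of OAS-like genes.

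The members lie in 2 places on the same chromosome of GRCm38. A cluster of 10 *Oas1*, *Oas2* and *Oas3* genes covers 191 kb at chr5:120730333-120921652, and *Oasl1* and *Oasl2* cover 41.0 kb at chr5:114896936-114937915, 5.79 Mb away. Promoter windows reaching from 250 bases before to 50 bases after the start site were held for 6 of the 8 members in the RefSeq table (GRCm38.p6), and *Oas1b* and *Oas2* had none. The *Oas1b* start site (plus strand, 120812635) lies 121 bases from that of *Oas1c* (minus strand, 120812514), so that the *Oas1c* window read on the plus strand also shows 170 bases before the *Oas1b* start. The windows below are shown because 3 *Oas1* promoters hold the same run of 16 bases close to the start site while *Oas3* holds another version. They are written 5′ to 3′ in the direction of the gene. Capitals mark matches to the ISRE letters, 2 copies of GAAA with any 2 bases between them, and these matches overlap each other in the *Oas1* windows.
*Oas1a* (chr5:120907476-120907775, minus strand): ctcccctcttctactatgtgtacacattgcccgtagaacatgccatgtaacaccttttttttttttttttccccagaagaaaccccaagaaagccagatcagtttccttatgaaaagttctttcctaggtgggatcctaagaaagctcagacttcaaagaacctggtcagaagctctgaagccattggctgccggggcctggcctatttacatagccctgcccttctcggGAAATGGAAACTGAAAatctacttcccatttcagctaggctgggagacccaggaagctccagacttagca
*Oas1g* (chr5:120887564-120887863, minus strand): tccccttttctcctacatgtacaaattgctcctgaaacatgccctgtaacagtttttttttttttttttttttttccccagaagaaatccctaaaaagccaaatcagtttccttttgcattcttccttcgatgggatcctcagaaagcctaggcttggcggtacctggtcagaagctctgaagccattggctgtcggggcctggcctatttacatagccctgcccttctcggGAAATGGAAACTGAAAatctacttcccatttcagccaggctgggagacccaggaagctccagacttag
*Oas1b* (chr5:120812465-120812684, plus strand): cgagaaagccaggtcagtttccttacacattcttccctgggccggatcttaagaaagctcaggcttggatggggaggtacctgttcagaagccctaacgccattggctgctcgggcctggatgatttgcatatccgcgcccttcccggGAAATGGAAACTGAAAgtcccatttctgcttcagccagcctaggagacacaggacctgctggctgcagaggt
*Oas3* (chr5:120777610-120777909, minus strand): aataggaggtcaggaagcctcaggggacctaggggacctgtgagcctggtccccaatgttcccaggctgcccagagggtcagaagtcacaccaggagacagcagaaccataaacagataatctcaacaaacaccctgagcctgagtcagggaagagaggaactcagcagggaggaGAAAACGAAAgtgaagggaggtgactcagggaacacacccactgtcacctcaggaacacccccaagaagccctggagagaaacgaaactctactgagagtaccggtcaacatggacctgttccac

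Each window was searched on both strands for the ISRE letters, for the ETS-IRF composite element (GGAA and GAAA with any 2 bases between them), at which IRF4 can bind together with an ETS factor, and for the STAT site GAS (TTCNNNGAA). ISRE letters were found in 4 of the 6 windows, those of *Oas1a*, *Oas1c*, *Oas1g* and *Oas3*, and in 3.443% of all 32851 windows of the table. The run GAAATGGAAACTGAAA, which holds 2 overlapping matches, spans bases -20 to -5 before the *Oas1a* start and -18 to -3 before the *Oas1g* start. The same run lies -22 to -7 before the *Oas1b* start, and on the reverse strand of the *Oas1c* window at -114 to -99. It occurred in 7 of the 32851 windows, and these belong to *Apol9a*, *Apol9b*, *Oas1a*, *Oas1c* and *Oas1g*. *Oas1a* and *Oas1g* share an unbroken stretch of 73 bases around it, *Oas1a* and *Oas1b* one of 19 bases. In *Oas3* the match spans -75 to -66. The composite element was found in 0 of the 6 windows (2.715% of all windows) and GAS in 1, at -98 to -90 of *Oas1a* (8.298% of all windows). The windows of *Oasl1* and *Oasl2* held none of these letters. A match describes the letters of a window and is not a bound site, and the absence of a match says nothing about a factor.

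The libraries held 31686715 and 31230223 counts (EV-RV) or 34771970 and 37817752 counts (IRF4-RV). CPM denotes counts scaled to the library size after TMM normalization. A floor of 3 counts corresponds to between 0.0824 and 0.0952 CPM, for counting error only. *Irf4*, the gene on the vector, was counted 8070 and 7600 times in EV-RV against 95578 and 90693 in IRF4-RV, a log2 fold change of 3.46, and reads of the vector and of the deleted locus are not separated. The B-lineage genes *Cd79a*, *Cd79b*, *Pax5* and *Ebf1* were present in every library and differed by less than the test could call, while *Rag1* was at 0 or 1 count. Of the 10 B-cell progenitor genes listed, 9 were tested, 0 rose and 4 fell (*Vpreb1*, *Igll1*, *Dntt* and *Il7r*). Over all genes tested, 16.0% rose and 13.7% fell. Differences were tested over 14637 genes by edgeR's quasi-likelihood method, with p-values adjusted after Benjamini and Hochberg and a cutoff of 0.1 (FDR), and "rose" and "fell" are used for genes past this cutoff. In bulk RNA, fewer cells expressing a gene and less RNA per cell cannot be told apart.

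The family was higher with IRF4-RV. Of the 8 members, 7 rose and 0 fell, where 29.7% of all genes tested were called, 16.0% as higher and 13.7% as lower. All 8 had both IRF4-RV libraries above both EV-RV libraries, as did 31.3% of all genes (29.9% had the opposite order), and 7 rose by more than 1 on the log2 scale, as did 4.50% of all genes. The median log2 fold change was 1.26 over the members and 0.01 over all genes tested. The member counts summed to 64.7 and 65.5 CPM in EV-RV and to 149 and 181 CPM with IRF4-RV. The size of the change differed widely between members, from 7.66-fold for *Oas3* to 1.35-fold for *Oas1c*.

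**Figure D1:**
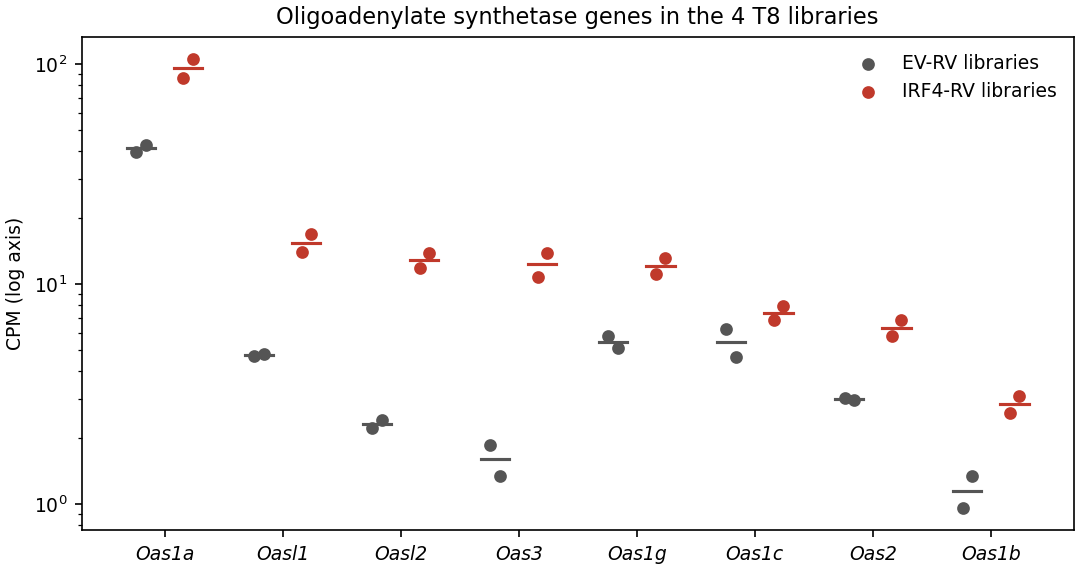
Level of each member in every library. The vertical axis gives CPM on a log scale, each point is 1 library (grey EV-RV, red IRF4-RV) and each short line a group mean. Both red points of each gene lie above both grey points, and the 2 groups are farthest apart for *Oas3* and *Oasl2* and closest for *Oas1c*.

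*Oas3* (ENSMUSG00000032661, chr5:120753098-120777661, minus strand), which encodes the largest synthetase and makes long 2-5A chains after binding long dsRNA, rose the most. It was counted 62 and 42 times in EV-RV against 363 and 503 in IRF4-RV, or 1.86 and 1.33 CPM against 10.7 and 13.8 CPM. The low EV-RV counts mean that *Oas3* was among the least abundant members in control cells. Its log2 fold change was 2.94 (standard error 0.213, 95% interval 2.44 to 3.43, edgeR adjusted p = 7.18e-05), rank 128 of 14637 genes by fold change. The EV-RV libraries differed from each other by more than those of most members, and leaving out single libraries moved the value from 2.72 to 3.19.

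*Oas2* (ENSMUSG00000032690, chr5:120730333-120749853, minus strand) encodes the medium-sized synthetase. It was counted 101 and 93 times in EV-RV against 197 and 249 in IRF4-RV, or 3.03 and 2.95 CPM against 5.82 and 6.84 CPM. The groups did not overlap, and the log2 fold change was 1.08 (standard error 0.173, 95% interval 0.68 to 1.48, edgeR adjusted p = 0.00367). *Oas2* and *Oas3* are neighbors on the minus strand, and their levels changed order: the count ratio of *Oas3* to *Oas2* was 0.614 and 0.452 in EV-RV against 1.84 and 2.02 in IRF4-RV.

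*Oas1a* (ENSMUSG00000052776, chr5:120896256-120907521, minus strand) encodes an active synthetase and was the most abundant member. It was counted 1332 and 1351 times in EV-RV against 2919 and 3828 in IRF4-RV, or 39.9 and 42.8 CPM against 86.2 and 105 CPM. Both IRF4-RV libraries were thus more than 2 times as high as either control. The log2 fold change was 1.21 (standard error 0.111, 95% interval 0.95 to 1.47, edgeR adjusted p = 0.000254).

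*Oas1g* (ENSMUSG00000066861, chr5:120876142-120887613, minus strand), a second active copy, was counted 194 and 161 times in EV-RV against 374 and 477 in IRF4-RV, or 5.81 and 5.11 CPM against 11.0 and 13.1 CPM. Its log2 fold change of 1.14 (standard error 0.146, 95% interval 0.81 to 1.48, edgeR adjusted p = 0.00127) lay close to that of *Oas1a*. The count ratio of *Oas1g* to *Oas1a* was 0.146 and 0.119 in EV-RV against 0.128 and 0.125 in IRF4-RV, so that the groups overlapped. The longest transcripts of the 2 genes are near copies. Of their 50-base words, 57.6% for *Oas1a* and 54.7% for *Oas1g* also occur in another gene, mostly in each other. For words of 100 bases the shares were 40.9% and 38.2%. How reads with several alignments were counted is not given in the sources used here, so the split between *Oas1a* and *Oas1g* is uncertain. Their sum was 45.7 and 48.0 CPM with EV-RV and 97.2 and 118 CPM with IRF4-RV, a fold of 2.30 between the group means.

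*Oas1b* (ENSMUSG00000029605, chr5:120812635-120824163, plus strand) is known as the flavivirus resistance gene, and C57BL/6 mice carry a copy with an early stop codon. The annotation accordingly lists it as a polymorphic pseudogene. It was the least abundant member by CPM, with 32 and 42 counts in EV-RV and 88 and 113 in IRF4-RV, or 0.959 and 1.33 CPM against 2.60 and 3.10 CPM. Its RNA rose despite the low counts, with a log2 fold change of 1.32 (standard error 0.282, 95% interval 0.66 to 1.97, edgeR adjusted p = 0.0133). The interval is the widest of the family, and leaving out each library in turn gave 1.09 to 1.57.

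*Oas1c* (ENSMUSG00000001166, chr5:120800194-120812514, minus strand), which starts next to *Oas1b* on the other strand, was the only member not called. It was counted 208 and 147 times in EV-RV against 232 and 288 in IRF4-RV, or 6.23 and 4.66 CPM against 6.85 and 7.91 CPM. The higher control library lay just under the lower IRF4-RV library. The log2 fold change was 0.44 (standard error 0.179, 95% interval 0.02 to 0.85, edgeR adjusted p = 0.128). The call turned on single libraries: without EV-RV replicate 1 the log2 fold change was 0.65 (edgeR adjusted p = 0.0553) and without IRF4-RV replicate 1 it was 0.52 (edgeR adjusted p = 0.0796), and across all alternatives the adjusted p ran from 0.0188 to 0.415. The count ratio of *Oas1b* to *Oas1c* was 0.154 and 0.286 in EV-RV against 0.379 and 0.392 in IRF4-RV. The groups of this ratio did not overlap, but 2 against 2 libraries cannot reach a two-sided exact permutation p below 0.333. Of the 50-base words of the longest *Oas1c* transcript, 16.3% occur in other genes. Its exons share 227 bases with *Gm43069* on the opposite strand, which had 0 or 1 count per library.

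*Oasl1* and *Oasl2* encode OAS-like proteins with ubiquitin-like domains. OASL1 has no synthetase activity and is known to restrain translation of *Irf7*, while mouse OASL2 can make 2-5A. *Oasl1* (ENSMUSG00000041827, chr5:114923240-114937915, plus strand) was counted 157 and 152 times in EV-RV against 472 and 614 in IRF4-RV, or 4.71 and 4.82 CPM against 13.9 and 16.9 CPM. Its log2 fold change was 1.69 (standard error 0.141, 95% interval 1.37 to 2.02, edgeR adjusted p = 0.000156). *Oasl2* (ENSMUSG00000029561, chr5:114896936-114912234, plus strand) was counted 74 and 76 times in EV-RV against 401 and 501 in IRF4-RV, or 2.22 and 2.41 CPM against 11.8 and 13.8 CPM. With a log2 fold change of 2.47 (standard error 0.154, 95% interval 2.11 to 2.82, edgeR adjusted p = 3.53e-05) it rose more than *Oasl1*. The count ratio of *Oasl2* to *Oasl1* moved from 0.471 and 0.5 with EV-RV to 0.850 and 0.816 with IRF4-RV, and the control libraries of both genes lay close together. No 50-base word of the longest transcript of *Oas2*, *Oasl1* or *Oasl2* occurs in another gene. Their exon bases outside that transcript were not searched. The exons of *Oasl1* share 38 bases with *Gm13822* on the opposite strand, which had 5 to 14 counts per library, and since the strand setting is not given, reads from these bases cannot be assigned with certainty.

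Levels of different genes were compared as CPM per kilobase of merged exons. With EV-RV, *Oas1a* stood at 22.0 ± 1.10 CPM per kb (SD, n = 2) and held 72.7% of the family sum. *Oas1g* (2.33 ± 0.214) and *Oas1c* (2.27 ± 0.462) followed and overlapped, then *Oasl1* (1.83 ± 0.0313), then *Oas2* (0.671 ± 0.0123) and *Oas1b* (0.575 ± 0.132), which overlapped, then *Oasl2* (0.363 ± 0.0214) and *Oas3* (0.226 ± 0.0526). *Oas1a* thus led by a wide margin in control cells and *Oas3* came last. With IRF4-RV, *Oas1a* was at 50.8 ± 7.11 CPM per kb and still held 71.0% of the sum. *Oasl1* (5.91 ± 0.794) and *Oas1g* (5.16 ± 0.622) overlapped, followed by *Oas1c* (3.07 ± 0.312), *Oasl2* (2.01 ± 0.213), *Oas3* (1.74 ± 0.310), *Oas1b* (1.43 ± 0.179) and *Oas2* (1.42 ± 0.162). Of these last 4, *Oasl2* overlapped with *Oas3*, *Oas3* with *Oas1b* and *Oas2*, and *Oas1b* with *Oas2*. Within each IRF4-RV library, however, *Oasl1* lay above *Oas1g*, *Oasl2* above *Oas3*, and *Oas3* above *Oas1b* and *Oas2*. Only the order of *Oas1b* and *Oas2* differed between the IRF4-RV libraries. As a share of the sum, *Oas3* went from 0.747% to 2.43% and *Oasl2* from 1.20% to 2.81%, while *Oas1c* went from 7.50% to 4.29%. Per kilobase of the longest transcript *Oasl2* stood at 4.10 CPM per kb with IRF4-RV, above *Oas1c* at 3.22, so their order rests on the transcript length chosen. The EV-RV order also changed with this length. *Oasl2* (0.741) then lay above *Oas1b* (0.624) and near *Oas2* (0.754), and *Oas1c* overlapped with *Oasl1*. *Oas1a* stayed first and *Oas3* last in control cells.

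The *Oas1d*, *Oas1e*, *Oas1f* and *Oas1h* genes of the cluster were not tested. *Oas1d*, *Oas1e* and *Oas1h* had 0 counts in each of the 4 libraries, and *Oas1f* had 0 and 0 in EV-RV against 6 and 1 in IRF4-RV. Of the 10 genes in the cluster, 6 were thus tested and 5 of these rose. Of 9 other protein-coding genes that start within 100 kb of a member, 5 were tested, 0 rose and 1 fell. Over all genes tested, 16.0% rose and 13.7% fell, and counts over 5 genes cannot be told apart from these shares. The neighbor that fell was *Rasal1*, which encodes a Ras GTPase-activating protein (log2 fold change -0.76, edgeR adjusted p = 0.00149). *Dtx1*, the gene next to *Oas2*, encodes a regulator of Notch signaling and was at -0.48 (edgeR adjusted p = 0.462), and *Sppl3* beside the *Oasl* pair was at 0.04.

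**Figure D2:**
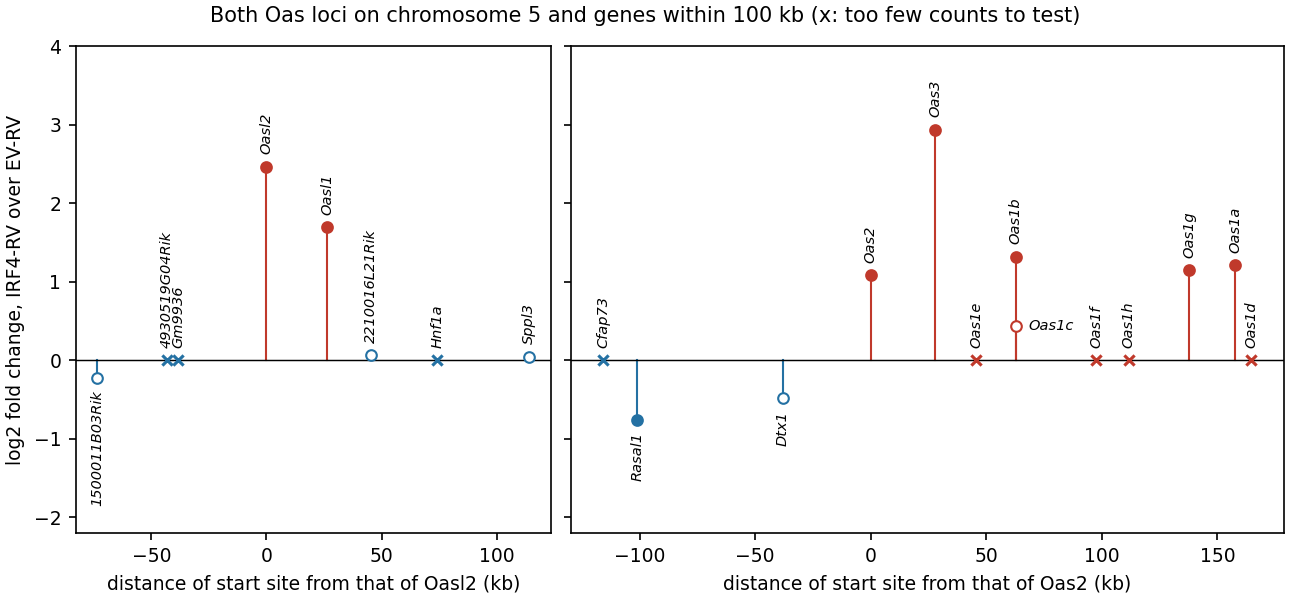
Log2 fold change (IRF4-RV over EV-RV, vertical axis) of each gene against the distance in kb of its start site from that of *Oasl2* (left) or *Oas2* (right). Red marks *Oas* genes, blue neighbors within 100 kb, filled points genes past the FDR cutoff, open points genes tested but not called, crosses genes with too few counts to test. The filled red points lie above 1 while the neighbors lie near or below 0.

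Beyond the synthetases, 3 genes of the 2-5A pathway are described here, of which 1 fell and 2 were not called. Over all genes tested, 16.0% rose and 13.7% fell, and counts over 3 genes cannot be told apart from these shares. *Abce1*, which encodes a ribosome recycling factor known to dampen the 2-5A pathway, fell from 299.3 ± 5.74 to 227 ± 1.22 CPM, a log2 fold change of -0.40 (edgeR adjusted p = 0.00532). *Pde12* and *Akap7*, both coding for phosphodiesterases that degrade 2-5A, had log2 fold changes of -0.20 (edgeR adjusted p = 0.134) and -0.26 (edgeR adjusted p = 0.444) and were not called.

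The other genes of dsRNA recognition were higher in both IRF4-RV libraries. Of 8 such genes 7 were tested, and all 7 rose, where 16.0% of all genes tested rose. Their median log2 fold change was 1.40, against 0.01 over all genes. *Eif2ak2* (the kinase PKR) had a log2 fold change of 1.41, *Adar* (the RNA editor ADAR1) 1.26, *Ifih1* (the sensor MDA5) 1.24, *Ddx58* (the sensor RIG-I) 1.40 and *Dhx58* (LGP2) 1.63. *Zbp1*, a sensor of left-handed nucleic acids that can trigger necroptosis, was counted 17 and 17 times in EV-RV against 295 and 374 in IRF4-RV, a log2 fold change of 4.17. *Mavs*, the adaptor of RIG-I and MDA5, rose by 0.31 (edgeR adjusted p = 0.0338), and *Tlr3* stayed at 4 to 13 counts and was not tested. Apart from *Mavs* and *Zbp1*, the tested genes of this list thus had larger log2 fold changes than *Oas1g* and smaller ones than *Oasl1*. Of the DNA sensing pair, *Tmem173* (STING) rose by 0.40, and *Cgas*, a structural relative of OAS, was at 0.50 and not called (edgeR adjusted p = 0.125).

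Among the genes that act upstream of the family in interferon signaling, the ISGF3 subunits *Stat2* and *Irf9* rose. *Stat2* had a log2 fold change of 1.88 and *Irf9* one of 1.72, values between those of *Oasl1* and *Oasl2*. *Usp18*, which encodes a feedback inhibitor at the interferon receptor, went from 49 and 51 counts to 2277 and 3023, a log2 fold change of 5.60. *Socs1* (-0.05) and *Socs3* (0.08), also feedback inhibitors, were not called. Where 16.0% of all genes tested rose and 13.7% fell, 5 of 9 receptor chains and kinases rose and 0 fell. These were *Ifnar1* (1.02) and *Ifnar2* (0.69), the chains of the type I receptor, *Ifngr2* (0.41), *Ifnlr1* (1.10) and *Il10rb* (0.85), while *Ifngr1*, *Jak1*, *Jak2* and *Tyk2* lay between 0.02 and 0.31 and were not called.

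Where 16.0% of all genes tested rose and 13.7% fell, *Irf1* (1.38), *Irf2* (0.61), *Irf5* (0.27) and *Irf7* (1.93) rose beside *Irf4*, the gene on the vector. *Irf8* fell (-0.32) and *Irf3* was not called (-0.10). With any 1 library left out, 4 of these genes rose in place of 5, *Irf4* included. *Irf7* encodes the factor that amplifies type I interferon production and whose translation OASL1 restrains. Of 21 interferon genes, 17 had 0 counts in all 4 libraries. The type I gene *Ifnb1* was counted 0 and 3 times in EV-RV against 3 and 0 in IRF4-RV, which is at the floor of 3 counts. *Ifng*, the type II interferon, had 0 counts in both EV-RV libraries and 29 and 35 counts with IRF4-RV. This is at least 9.82-fold higher against a floor of 3 counts per library. *Ifng* passed the filter on low counts only through its IRF4-RV libraries, so no test result is given for it. Interferon RNA other than *Ifng* was thus not detectable above 3 counts with IRF4-RV except for *Ifnz*, counted 2 and 11 times in EV-RV against 5 and 3 in IRF4-RV.

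**Figure D3:**
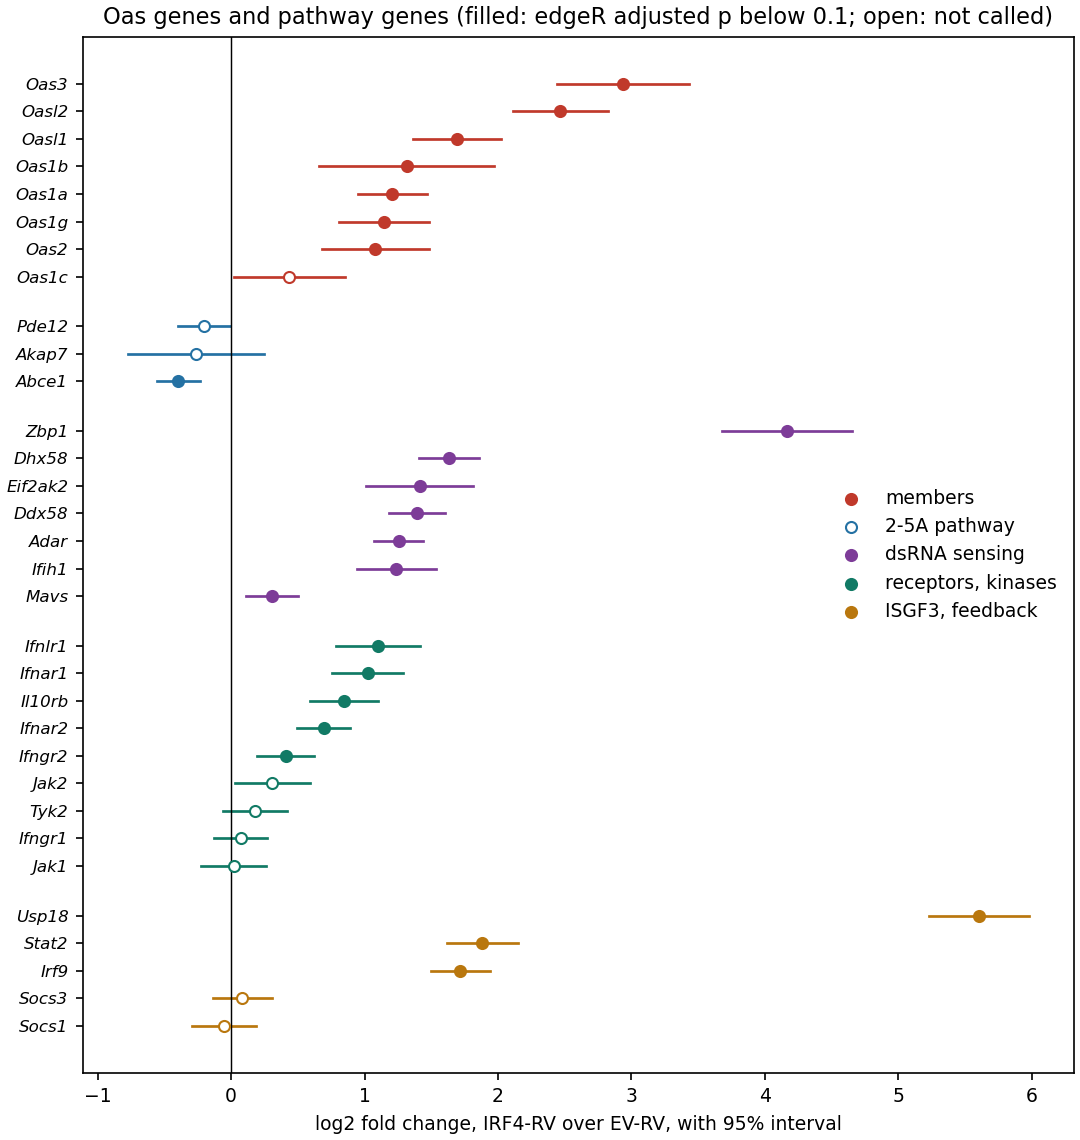
Log2 fold change (IRF4-RV over EV-RV, horizontal axis) with its 95% interval for the members and for tested genes of the 2-5A pathway, dsRNA sensing, interferon receptors and kinases, and ISGF3 with its feedback inhibitors. Filled points passed the FDR cutoff. The members span 0.44 to 2.94, while the 2-5A pathway genes drawn lie between -0.40 and -0.20.

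The libraries of a group were not equal for the family. All 8 members were higher in IRF4-RV replicate 2 than in replicate 1, by 1.15-fold for *Oas1c* to 1.29-fold for *Oas3*, while 4 of 8 were higher in EV-RV replicate 2 than in replicate 1. The dsRNA sensing list summed to 462 and 467 CPM in the IRF4-RV libraries, but its tested genes went both ways. The ratio of IRF4-RV replicate 2 to replicate 1 was 1.19 for *Ifih1*, 1.18 for *Zbp1* and 1.12 for *Dhx58*. It was 0.92 for *Eif2ak2*, 0.97 for *Mavs* and 0.98 for *Adar*, and *Ddx58* was nearly equal in both. Outside this list, *Usp18* (1.24) and *Irf7* (1.19) were also higher in replicate 2, while *Stat2* (0.89) and *Irf9* (0.92) were lower. A higher level in replicate 2 was thus not particular to the family. The summed level of markers of stromal cells, on which the line was first grown, was higher in replicate 2 than in replicate 1 of both groups and highest in IRF4-RV replicate 2: the 7 markers (*Col1a1*, *Col1a2*, *Col3a1*, *Pdgfrb*, *Pdgfra*, *Dcn*, *Cxcl12*) summed to 47.5 and 89.4 CPM with EV-RV and to 47.0 and 221 CPM with IRF4-RV, and 0 of the 6 tested were called. Without IRF4-RV replicate 2, the same 7 members passed the cutoff, with log2 fold changes of 2.75 for *Oas3*, 2.36 for *Oasl2*, 1.55 for *Oasl1*, 1.19 for *Oas1b*, 1.06 for *Oas1a*, 1.02 for *Oas1g* and 0.96 for *Oas2*, and *Oas1c* was at 0.33. Of the dsRNA sensing list 6 genes rose without this library, and 0 IRF genes fell. Replicate 1 of both groups held nearly equal stromal sums, and between these 2 libraries the CPM ratio was 5.77 for *Oas3*, 5.34 for *Oasl2*, 2.96 for *Oasl1*, 2.71 for *Oas1b*, 2.16 for *Oas1a*, 1.92 for *Oas2*, 1.90 for *Oas1g* and 1.10 for *Oas1c*. These ratios compare 1 library with 1 library. Whether stromal cells had a part in the level of the family was not tested.

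**Figure D4:**
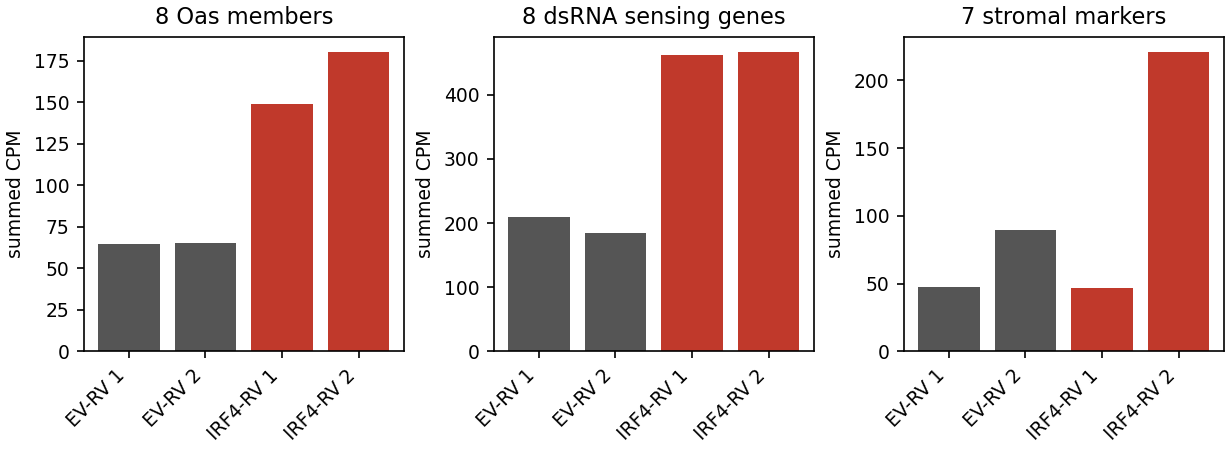
Summed CPM (vertical axes, from 0) per library of the 8 members, of 8 dsRNA sensing genes and of 7 stromal markers. Grey bars are EV-RV and red bars IRF4-RV libraries. The members and sensing genes are higher in both IRF4-RV libraries, while the stromal sum is higher in replicate 2 than in replicate 1 of both groups and highest in IRF4-RV replicate 2, at 221 CPM.

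Other cell types were measured by marker lists. Macrophage and granulocyte markers summed to 51 and 43 counts in EV-RV against 359 and 321 in IRF4-RV, where *Mrc1* (260 and 230 with IRF4-RV) and *Ly6g* (71 and 58) made up most of the counts. Of these 12 markers 3 were tested, 2 rose and 0 fell, where 16.0% of all genes tested rose. *Ly6g* passed the filter only through its IRF4-RV libraries, and 3 genes are too few to set against this share. *Mrc1* (24 and 23 counts in EV-RV) had a log2 fold change of 3.26. *Ly6g* (1 and 0 counts in EV-RV) was at least 19.9-fold higher against a floor of 3 counts per library. *Cd68*, at a log2 fold change of 0.47, was not called. Of the untested markers, *Adgre1*, *Cd163*, *S100a8* and *S100a9* were at 0 in every library and *Lyz2* at 0 or 1. *Csf1r*, *Itgam*, *Elane* and *Mpo* had 0 to 3 counts per library. T and NK cell markers summed to between 63 and 90 counts and plasmacytoid dendritic cell markers to between 29 and 45, with *Siglech* at 0. The part of other cells in the rise of the family was not tested beyond these values.

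The genes whose profile over the 4 libraries was most like the mean profile of the family were *Phf11b*, *Tor3a*, *Ifi35*, *4930539E08Rik* and *Sp140*. Likeness was the root mean square difference of centered log2 CPM, which was 0.0451, 0.0556, 0.0591, 0.0629 and 0.0655 for these genes. The members themselves ranged from 0.0839 for *Oasl1* to 0.710 for *Oas3*, so that *Oasl1* followed the family mean most closely. With 4 libraries in 2 groups, this measure mostly reflects a similar fold change, and all 5 genes had log2 fold changes between 1.45 and 1.57.

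**Figure D5:**
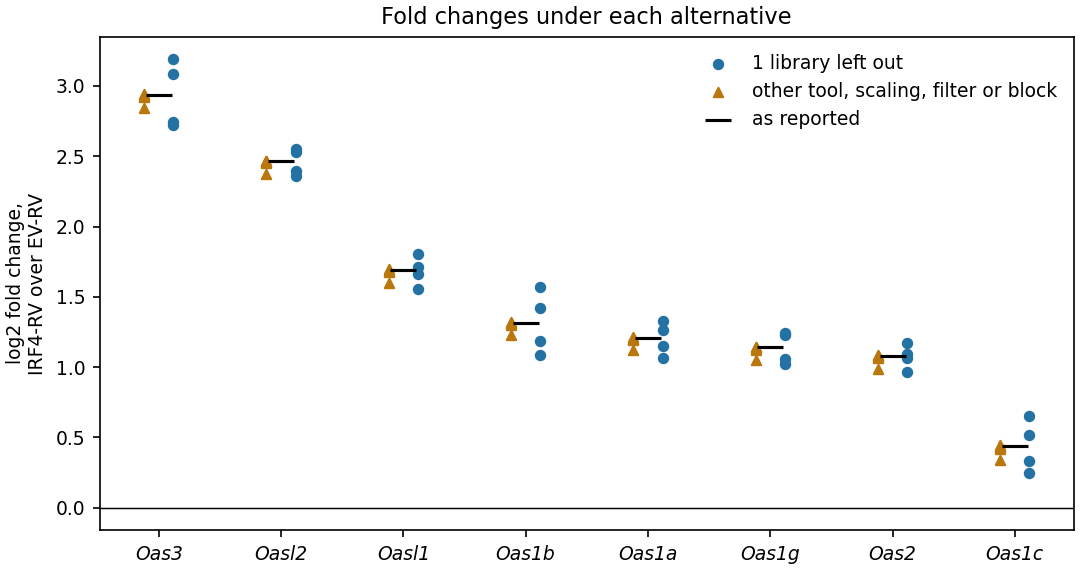
Log2 fold change (IRF4-RV over EV-RV, vertical axis) of each member as reported (black line), with 1 library left out (blue points) and with another tool, scaling, filter or replicate block (orange triangles). All values lie above 0, and those of *Oas1c* run from 0.25 to 0.65.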

How the data were processed

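Bulk RNAseq counts of 4 T8 libraries were analyzed. According to the submitters' processing notes, the authors checked reads with FastQC (0.11.2), aligned them to GRCm38 with STAR (2.4.0j), counted with featureCounts and used DESeq2 (1.22.1). The authors deposited raw, whole-number counts per Ensembl gene, without normalization. Settings for strand and multiple alignments are not given in the sources used here, so genes with near copies or overlapping genes are uncertain. Of 55359 identifiers, 52083 matched GENCODE M21 and 3276, with 0.203% to 0.486% of counts, did not.

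Genes passing filterByExpr were tested in R 4.3.3 with edgeR 4.0.16 (TMM, quasi-likelihood F test, Benjamini-Hochberg adjustment over all genes tested, FDR 0.1, the study's cutoff). Depth was 31230223 to 37817752 counts per library. The procedure was tested on simulated data, in which the share of false calls lay above the FDR cutoff and small changes were often missed, so adjusted p-values near the cutoff are uncertain. Alternatives were DESeq2 1.42.0, other scalings and filters, an FDR of 0.05, a replicate block and leaving out each library. Named genes are the members, the fixed lists of related genes, neighbors within 100 kb, and the 5 most alike genes with a mean of at least 50 counts. Some genes of these lists are not reported here. Members and lists were chosen with earlier results of these data known. Promoter windows and start sites came from RefSeq and GENCODE, both on GRCm38. No protein sequences were used here.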

Additional observations from a re-analysis of the deposited data

How the results depend on the processing

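In every alternative run with all 4 libraries, 7 or 8 members were called higher and 0 lower. Over all genes tested, these runs called between 1743 genes (library size only) and 3426 genes (replicate block) higher. No log2 fold change of a member changed sign in any run. *Oas1c* was called with no filter beyond 1 count (0.44, edgeR adjusted p = 0.0929). The share of the sum held by *Oas1a* was 69.2% with EV-RV and 65.9% with IRF4-RV when the longest transcript gave the length. In the 2-5A list 2 genes were called lower, not 1, with library size only and with the stricter filter of 50 counts in 2 libraries, and 1 to 2 with a library left out. In the IRF list 0 to 1 were called lower with a library left out, 0 without IRF4-RV replicate 2. With library size only, 1743 genes were higher and 2867 lower in place of 2340 and 2009, and the median of all genes was -0.08.

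Replicate numbers are shared by the groups, but no source says that they mark a shared batch. Deviations of same-numbered libraries correlated with r = 0.26 across genes, which are not independent. With the replicate number as a block, calls over all genes went from 2340 to 3426 higher and from 2009 to 2968 lower, and 8 members were called higher, *Oas1c* among them (0.44, edgeR adjusted p = 0.0188), and 2 genes of the 2-5A list lower. With 2 libraries per group the spread is poorly estimated, and genes under a few counts could not be tested.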
